A study of Rattus norvegicus with 49 samples.

Results

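The calcium/calmodulin-dependent kinases described here are the products of 7 of the 10411 genes named on the array, Camk4, Camk2a, Camk2b, Camk2d, Camk2g, Camk1 and Camkk2, measured in the CA1 region of the rat hippocampus at 5 ages. All probe sets that the platform annotation gives to 1 of these symbols were taken, which gave 14 of the 15866 probe sets that are not controls, and 13 of the 14 passed a filter on low signal that left 11375 probe sets for testing. A probe set is a group of short oligonucleotides on the array that reads 1 transcript or a group of related transcripts, and each was kept on its own. Camk4, Camkk2 and Camk2b had 2 probe sets each, Camk2a and Camk2d had 3 each, and Camk2g and Camk1 had 1 each.

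The animals were Fisher 344 rats of 3, 6, 9 and 12 months (9 animals each) and of 23 months (13 animals), with no treatment named other than water-maze training shortly before the tissue was taken. CA1 was dissected from the left hippocampus, and RNA of each animal went to its own Affymetrix RAE 230A array, 49 in all. Dissected CA1 holds pyramidal neurons with interneurons and glia, so fewer cells of a type and less RNA per cell cannot be told apart in these values.

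Calcium entering a neuron binds calmodulin, and the complex activates this kinase family. CaMKII is a large holoenzyme built from alpha, beta, gamma and delta subunits, encoded by Camk2a, Camk2b, Camk2g and Camk2d. It is abundant at excitatory synapses, and in CA1 it is needed for long-term potentiation. CaMKI and CaMKIV, encoded by Camk1 and Camk4, are switched on by the upstream kinase CaMKK2, and CaMKIV acts mostly in the nucleus, where it phosphorylates the transcription factor CREB.

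Values are given as signal, a linear array intensity scaled by the authors so that each array had the same trimmed mean. Signals of different probe sets depend on their oligonucleotides and are compared only within a probe set. Differences are on the log2 scale after signals under 16 were set to 16, and a probe set was called at a Benjamini-Hochberg adjusted p under 0.05 over all 11375 probe sets in limma.

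CA1 pyramidal cell markers were present on every array. Their summed signal over 9 genes was 15797 to 21301 at 23 months and 17804 to 22893 at 3 months. Of 9 tested CA1 probe sets, all 9 had a lower mean at 23 months, by a median of 0.12 on the log2 scale, and 1 passed the test, that of the transcription factor gene Pou3f1 (log2 difference −0.32, adjusted p = 0.0165). Microglial markers moved the other way, with 10 of 13 probe sets called higher and a summed signal of 9988 to 16852 at 23 months against 7656.5 to 9061.1 at 3 months. At 23 against 3 months, of the probe sets of neurons in general 2 of 18 were called lower, of astrocytes 3 of 17 higher and of oligodendrocytes 1 of 12 lower. Both called neuronal probe sets were of 1 gene, Stmn2, and the median log2 difference over the 18 was −0.02. No probe set was called for interneurons, choroid plexus, endothelial cells, dentate granule cells, CA3 pyramidal cells or blood. An unadjusted p under 0.05 was seen for 2 of 10 interneuron, 1 of 10 choroid plexus and 4 of 8 endothelial probe sets. The counts were 0 of 4 for dentate granule cells, 2 of 3 for CA3 pyramidal cells and 0 of 1 for blood. For CA1 pyramidal cells the count was 5 of 9, for microglia 11 of 13 and for neurons in general 3 of 18. For astrocytes it was 4 of 17 and for oligodendrocytes 2 of 12, where 14.5% of all probe sets were under 0.05. The summed signal of 5 dentate granule cell genes was 2258.9 to 4475.1 at 23 months and 1851.2 to 4211.2 at 3 months. Ttr, a choroid plexus marker, exceeded 2000 on 5 arrays (23 months replicate 11 and 3 months replicates 4, 6, 7 and 8), and the haemoglobin gene Hbb exceeded 500 on 2 arrays (23 months replicates 5 and 8). The log2 ratio of 3′ to 5′ control signal, a sign of RNA degradation, was 0.617 ± 0.089 at 23 months and 0.537 ± 0.086 at 3 months (SD, n = 13 and 9). The part of these cell types and of RNA quality in the kinase values was not tested beyond the fits named beside each result.

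Of the 13 kinase probe sets, 1 was called as different over the 5 ages in the F-test, where 1.67% of all probe sets were called. It was a probe set of Camk4. The same probe set was the only 1 of 13 called at 23 against 3 months, as lower, where 2.97% of all probe sets were called, 2.08% as higher and 0.888% as lower. It was also the only 1 of 13 with a called slope over age in months, where 4.76% of all probe sets were called and 1.71% were called as falling. No kinase probe set separated the 23-month animals from the 3-month animals without overlap, as 0.316% of all probe sets did. The median log2 difference of the 13 probe sets at 23 against 3 months was −0.13, and that of all 11375 was 0.00088. A single call among 13 probe sets sets nothing apart from these shares. The plot of log2 differences shows how few intervals lie off 0.

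**Figure D1:**
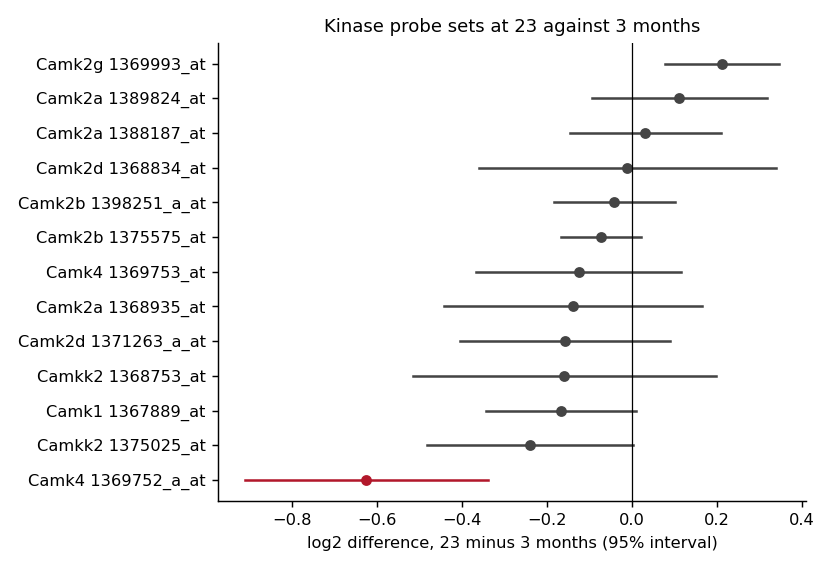
Log2 difference in signal, 23 minus 3 months, for the 13 kinase probe sets that passed the filter, with 95% intervals from limma (n = 13 and 9 animals). Only Camk4 1369752_a_at, in red, was called; Camk2g 1369993_at also has an interval above 0 but did not pass after adjustment.

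Camk4 1369752_a_at, annotated to the gene of the kinase CaMKIV, had its lowest mean signal in the oldest animals. The 23-month animals lay between 79.5 and 207.9 with a median of 146.7, and the 3-month animals lay between 154.8 and 323.0 with a median of 210.3. All 13 of the 23-month animals were below the 3-month mean, and 8 of the 13 were below the lowest 3-month animal, so the groups overlapped in their middle. The mean was 145 ± 36.4 at 23 months and 225 ± 64.2 at 3 months (SD, n = 13 and 9). The log2 difference was −0.63 (SE 0.14, 95% interval −0.91 to −0.34, adjusted p = 0.00436), or 1.54-fold lower.

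The mean of this Camk4 probe set did not fall steadily over the ages, though 12 against 9 months was not tested. Its mean was 225 ± 64.2 at 3 months, 183 ± 52.2 at 6 months, 156 ± 18.9 at 9 months, 191 ± 26.8 at 12 months and 145 ± 36.4 at 23 months (SD, n = 9, 9, 9, 9 and 13). The signals ranged from 104.3 to 274.9 with a median of 174 at 6 months, from 132.4 to 189.2 with a median of 151.5 at 9 months, and from 143.9 to 229.4 with a median of 192.1 at 12 months. The 9-month animals were thus all below the 3-month mean, 9 of 9, while the 12-month animals lay higher than those of 9 months in the median. In log2 terms the difference from 3 months was −0.30 at 6 months, −0.48 at 9 months and −0.20 at 12 months, and none of these passed (adjusted p = 0.999, 1.000 and 0.811). At 9 months the 95% interval of the difference was −0.79 to −0.17 and the unadjusted p was 0.00297. From 12 months the oldest animals differed by −0.43 (95% interval −0.71 to −0.14, adjusted p = 0.321). These contrasts share the 3-month or the 23-month animals and are not independent of each other. The coefficient of variation was 28.6% at 3 months, 28.6% at 6 months, 12.1% at 9 months, 14.0% at 12 months and 25.1% at 23 months. A difference in spread was not tested. The limma contrasts use 1 estimate of spread for all ages. On the log2 scale the SD pooled over ages was 0.34. It was 0.41 at 3 months, 0.17 at 9 months, 0.21 at 12 months and 0.39 at 23 months.

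**Figure D2:**
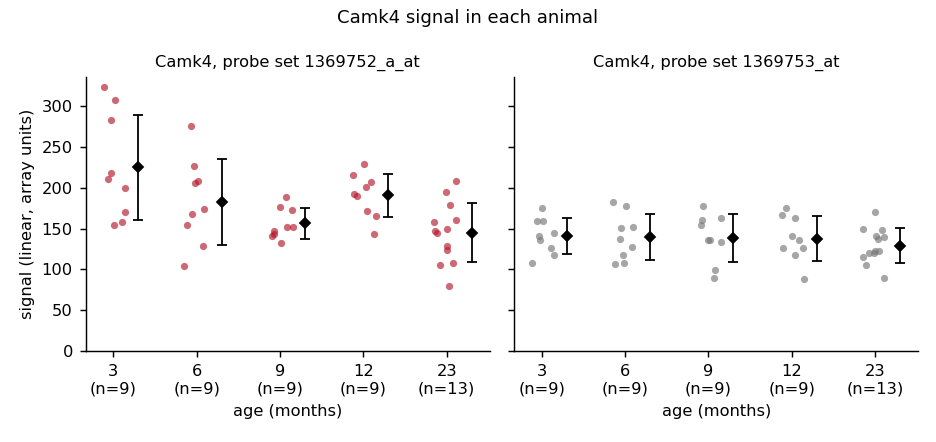
Signal of the 2 Camk4 probe sets in each animal by age in months, on a linear axis from 0; points are animals and black diamonds are means with SD (n = 9 per age, 13 at 23 months). For 1369752_a_at the 23-month animals reach 207.9 at most and the 3-month animals start at 154.8; for 1369753_at the ranges of all ages overlap.

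The fitted slope of this probe set was −0.49 on the log2 scale over 20 months (SE 0.13, adjusted p = 0.0153), and the F-test over ages gave an adjusted p of 0.0432. The difference between 23 and 3 months was still called when any of the 49 arrays was left out (log2 difference −0.69 to −0.55, adjusted p = 0.00166 to 0.0202). It was −0.75 without the 5 arrays of high Ttr, −0.61 without the 2 of high Hbb, −0.64 with Prox1, a dentate granule cell gene, as a covariate and −0.54 with the 3′ to 5′ ratio as a covariate (adjusted p = 0.00709, 0.0104, 0.00104 and 0.0291). With the ratio as a covariate the slope was −0.42 and not called (adjusted p = 0.0789), and the F-test was not called either (adjusted p = 0.142). In the methods' plain test of these ages the difference did not pass after adjustment (adjusted p = 0.0621). The F-test call was lost when any of 28 single arrays was left out, 6 of 9 at 3 months, 2 of 9 at 6 months, 6 of 9 at 9 months, 6 of 9 at 12 months and 8 of 13 at 23 months. The adjusted p was then 0.0502 to 0.110, with the highest without 3 months replicate 3, whose signal of 323.0 was the highest of that age.

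The other Camk4 probe set, 1369753_at, was not called. Its signal was 89.5 to 170.2 with a median of 122.5 at 23 months, and 107.8 to 174.9 with a median of 141.3 at 3 months. The ranges overlapped almost fully. The log2 difference was −0.13 (95% interval −0.37 to 0.12, adjusted p = 0.704), and the means at the other ages were 140 ± 28.3 at 6 months, 139 ± 29.2 at 9 months and 138 ± 27.3 at 12 months. Across the 49 arrays the probe sets of Camk4 did not vary together: Pearson's r was −0.05 and Spearman's rho −0.01 (permutation p = 0.76 and 0.927, both adjusted over 7 probe set pairs to 0.832 and 0.927), and r was 0.02 without the 2 arrays farthest from the median. The difference between the changes of these 2 probe sets was itself −0.50, with an exact two-sided permutation p of 0.0323 that became 0.226 after adjustment over 7 probe set pairs. The fall of Camk4 therefore rests on 1 of its 2 probe sets. The platform annotation names a different source sequence for each, but not which transcripts each reads. Whether the probe sets read different transcripts of the gene was not tested.

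The genes whose log2 signal was most like that of Camk4 1369752_a_at over the 49 arrays were Pkia, which encodes an inhibitor of protein kinase A (r = 0.56), Phka1, a regulatory subunit of phosphorylase kinase (r = 0.51), and Pias2, a SUMO ligase (r = 0.51). After the mean of each age was subtracted r was 0.52, 0.51 and 0.44. In single ages r for these 3 genes went down to −0.05, −0.45 and −0.05. These correlations describe arrays that share their scaling, and Pkia itself was not called at 23 against 3 months (log2 difference −0.31, adjusted p = 0.119).

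Camk2g, which encodes the gamma subunit of CaMKII, had the most positive difference of the 13 probe sets at 23 against 3 months, without passing the test. Its 1 probe set, 1369993_at, had a signal of 1633.7 to 2185.9 with a median of 1936.4 at 23 months, and 1497.7 to 1882.0 with a median of 1600.6 at 3 months. Of the 13 oldest animals 12 were above the 3-month mean and 9 were above the highest 3-month animal. The mean was 1654 ± 133 at 3 months, 1823 ± 327 at 6 months, 1784 ± 217 at 9 months, 1860 ± 158 at 12 months and 1916 ± 145 at 23 months (SD, n = 9, 9, 9, 9 and 13). The animals of 6 months spread most, from 1394.8 to 2446.5. At 23 against 3 months the log2 difference was 0.21 (SE 0.067, 95% interval 0.077 to 0.35), or 1.16-fold, with an unadjusted p of 0.00275 and an adjusted p of 0.0715. At 12 against 3 months it was 0.17 (unadjusted p = 0.0256, adjusted p = 0.556), and the slope was 0.17 over 20 months (adjusted p = 0.0851).

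The call on Camk2g moved with the fit. It passed in a fit of the 23- and 3-month animals alone (adjusted p = 0.0173), in the methods' plain test (adjusted p = 0.0207) and with the 3′ to 5′ ratio as a covariate, where the log2 difference was 0.26 (adjusted p = 0.0212). It also passed without 6 months replicate 7 (adjusted p = 0.0435) and without 23 months replicate 8, an array of high Hbb (adjusted p = 0.0436), but not without both arrays of high Hbb (adjusted p = 0.0774). The slope likewise passed without 6 months replicate 7 (adjusted p = 0.0237), without 23 months replicate 8 (adjusted p = 0.0460) and with the ratio as a covariate (0.22, adjusted p = 0.0267). Without the 5 arrays of high Ttr the difference at 23 against 3 months was 0.16 (adjusted p = 0.451).

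Camk2a and Camk2b, the alpha and beta subunit genes that make up most CaMKII of forebrain neurons, were not called in any comparison of ages. Camk2a 1388187_at lay between 2630.6 and 5656.3 with a median of 4853.2 at 23 months, and between 3582.1 and 5845.2 with a median of 4684.4 at 3 months. The ranges overlapped apart from 1 old animal, replicate 5, at 2630.6. The mean was 4727 ± 707 at 3 months, 5049 ± 763 at 6 months, 4932 ± 409 at 9 months, 4922 ± 606 at 12 months and 4859 ± 797 at 23 months. The log2 difference between 23 and 3 months was 0.03 (95% interval −0.15 to 0.21, adjusted p = 0.925), and it was 0.10 without replicate 5 of 23 months, which had also 1 of the 2 high Hbb signals.

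The other Camk2a probe sets moved in neither direction past the test. Camk2a 1368935_at had a mean of 308 ± 71.3 at 23 months and 338 ± 81.3 at 3 months, a log2 difference of −0.14 (95% interval −0.44 to 0.17, adjusted p = 0.751). Camk2a 1389824_at had a dip at the middle ages, with means of 338 ± 66.1 at 3 months, 310 ± 39.6 at 6 months, 293 ± 21.5 at 9 months, 301 ± 53.8 at 12 months and 363 ± 65.4 at 23 months. All 9 animals of 9 months were below the 3-month mean, and 4 of the 13 oldest animals were above the highest 3-month animal. The log2 difference was 0.11 at 23 against 3 months (95% interval −0.09 to 0.32, adjusted p = 0.689) and 0.27 at 23 against 12 months (95% interval 0.067 to 0.48, adjusted p = 0.399). The unadjusted p of the F-test was 0.0300 and the adjusted p 0.440. Without 3 months replicate 8, which had the lowest signal of its age at 189.3, the difference of 23 from 3 months was 0.011.

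Camk2b 1375575_at was the member of narrowest interval. It lay between 3760.9 and 4333.5 with a median of 4122.1 at 23 months, and between 3653.8 and 4667.5 with a median of 4375.6 at 3 months. Of the oldest animals 12 of 13 were below the 3-month mean, yet all lay inside the 3-month range. The log2 difference was −0.07 (95% interval −0.17 to 0.021, adjusted p = 0.510). Camk2b 1398251_a_at had a mean of 4481 ± 675 at 23 months and 4586 ± 492.5 at 3 months, a log2 difference of −0.04 (95% interval −0.18 to 0.10, adjusted p = 0.854).

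**Figure D3:**
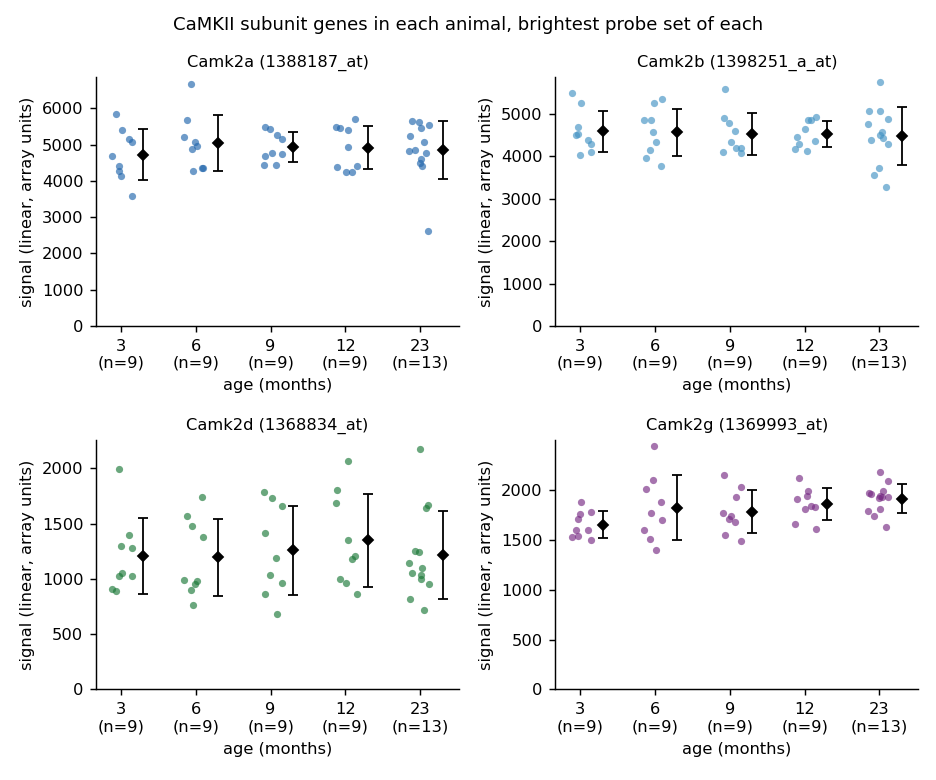
Signal of the 4 CaMKII subunit genes in each animal by age in months, 1 probe set of highest signal per gene, on linear axes from 0; points are animals and black diamonds are means with SD (n = 9 per age, 13 at 23 months). The ages overlap with no called difference for all 4 genes; Camk2g spans 1633.7 to 2185.9 at 23 months and 1497.7 to 1882.0 at 3 months, and Camk2d is widely spread at every age.

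Camk2d, the delta subunit gene, differed more between animals of 1 age than between ages. Camk2d 1368834_at lay between 718.7 and 2176.6 with a median of 1097.2 at 23 months, and between 892.5 and 1989.7 with a median of 1053.1 at 3 months. A similar span was seen at 6 months (765.7 to 1741.8), 9 months (678.3 to 1781.1) and 12 months (862.9 to 2065.6). The mean was 1207 ± 343 at 3 months, 1193 ± 349 at 6 months, 1256 ± 406 at 9 months, 1347 ± 418 at 12 months and 1214 ± 400 at 23 months. The log2 difference of 23 from 3 months was −0.01 (95% interval −0.36 to 0.34, adjusted p = 0.987). That interval does not reach the −0.63 of Camk4 but leaves room for smaller changes either way, and the difference was 0.17 without the 5 arrays of high Ttr.

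The spread of Camk2d 1368834_at within an age was 0.43 on the log2 scale (SD pooled over ages), which was larger than that of 99.7% of 1573 probe sets of like mean signal. For the other tested Camk2d probe set, 1371263_a_at, the spread was 0.29, larger than that of 80.4% of 2380. By this share among probe sets of like signal, the next after Camk2d 1368834_at was Camk2a 1368935_at, whose spread of 0.37 was larger than that of 97.8% of 2603 such probe sets, and Camk2a 1388187_at, whose spread of 0.22 was larger than that of 97.4% of 384. For Camk2b 1375575_at the spread was 0.11, larger than that of 36.4% of 467. For Camk4 1369752_a_at it was 0.34, larger than that of 87.5% of 2273.

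Both tested Camk2d probe sets followed the same animals. Their log2 signals correlated over the 49 arrays with Pearson's r = 0.78 and Spearman's rho = 0.79 (permutation p = 1e-05 for each, the smallest that 100000 resamples can give, and 7e-05 after adjustment over 7 pairs). Without the 2 arrays farthest from the median r was 0.77, and after the mean of each age was subtracted it was 0.80. Camk2d 1371263_a_at had a mean of 188 ± 29.8 at 23 months and 215 ± 66.4 at 3 months, a log2 difference of −0.16 (95% interval −0.41 to 0.088, adjusted p = 0.607). The third Camk2d probe set, 1368833_at, did not pass the filter, since only 3 arrays reached a signal of 100. It read 44.2 to 122.4 at 23 months and 41.7 to 117.6 at 3 months. With no filter its log2 difference was 0.05 (95% interval −0.30 to 0.40, adjusted p = 0.970).

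Of the other probe set pairs of 1 gene, Camk2a 1368935_at and 1388187_at also correlated, with r = 0.47 and rho = 0.38 (permutation p = 0.00099 and 0.00726, adjusted 0.0035 and 0.0254). Without the 2 farthest arrays r was 0.30, and within ages it was 0.47. The remaining 4 pairs, of Camk2a, Camk2b and Camkk2, had r from −0.03 to 0.19 and none passed (adjusted permutation p = 0.443 to 0.832). No pair of probe sets differed in its change at 23 against 3 months after adjustment by the exact permutation test, and 1 of 7, that of Camk4, had an unadjusted p under 0.05.

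The genes most like Camk2d 1368834_at over the 49 arrays were looked at after its spread was seen. They were Grp, which encodes gastrin-releasing peptide (r = 0.80), Rgs4, a regulator of G protein signalling (r = 0.79), and Tshz2, a zinc finger protein (r = 0.76). In single ages r was 0.67 to 0.93 for Grp, 0.51 to 0.94 for Rgs4 and 0.62 to 0.87 for Tshz2. For Camk2a 1368935_at, chosen in the same way, they were Dlg4, a postsynaptic scaffold protein (r = 0.76), Slc17a7, the vesicular glutamate transporter (r = 0.73), and Ppp3r1, the regulatory subunit of calcineurin (r = 0.69). Without the 2 arrays farthest from the median r was lower for these 3, at 0.63, 0.60 and 0.54. For Grp, Rgs4 and Tshz2 it was then 0.80, 0.78 and 0.74. None of these 6 probe sets was called at 23 against 3 months (limma adjusted p = 0.534 to 0.913).

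Camk1, which encodes CaMKI, and Camkk2 had lower means at 23 than at 3 months on all 3 of their probe sets, without passing. Camk1 1367889_at lay between 406.0 and 561.9 with a median of 448.7 at 23 months, and between 419.5 and 733.0 with a median of 508.4 at 3 months. Of the oldest animals 12 of 13 were below the 3-month mean. The means were 527 ± 96.5 at 3 months, 494 ± 68.5 at 6 months, 486 ± 96.4 at 9 months, 463 ± 60.7 at 12 months and 465 ± 46.4 at 23 months. The log2 difference was −0.17 at 23 months (95% interval −0.35 to 0.0085, adjusted p = 0.375) and −0.18 at 12 months (adjusted p = 0.689), each against 3 months.

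Camkk2, the kinase that phosphorylates CaMKI, CaMKIV and AMPK, had signals around the filter's minimum of 100 on both of its probe sets. Camkk2 1375025_at lay between 63.2 and 127.2 with a median of 96.3 at 23 months, and between 96.1 and 131.8 with a median of 111.5 at 3 months. Of the oldest animals 12 of 13 were below the 3-month mean and 6 of 13 were below the lowest 3-month animal. The log2 difference was −0.24 (95% interval −0.48 to 0.0015, adjusted p = 0.349). Camkk2 1368753_at had a mean of 83.8 ± 19.6 at 23 months and 91.1 ± 6.29 at 3 months, a log2 difference of −0.16 (95% interval −0.52 to 0.20, adjusted p = 0.759). These probe sets did not vary together over the arrays (r = −0.03, rho = 0.04, permutation p = 0.832 and 0.760).

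Before 23 months no kinase probe set was called. At 6 against 3 months 0 of 13 were called in limma, where 0.00879% of all probe sets were, and 0 had an unadjusted p under 0.05, as 2.83% of all did; the methods' plain test gave 0 too. At 9 against 3 months 0 of 13 were called, where 0.0527% of all were, and 1 had an unadjusted p under 0.05, as 3.1% of all did; it was Camk4 1369752_a_at. At 12 against 3 months 0 of 13 were called, where 0.202% of all were, and 1 had an unadjusted p under 0.05, as 7.75% of all did; it was that of Camk2g. At 23 against 12 months 0 of 13 were called, where 0.281% of all were, and 2 had an unadjusted p under 0.05, as 8.47% of all did; they were Camk4 1369752_a_at and Camk2a 1389824_at. The methods' plain test at the unadjusted threshold gave 1, 1 and 2 of 13 in these last 3 comparisons, where it gave 3.85%, 7.56% and 7.11% of all probe sets.

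**Figure D4:**
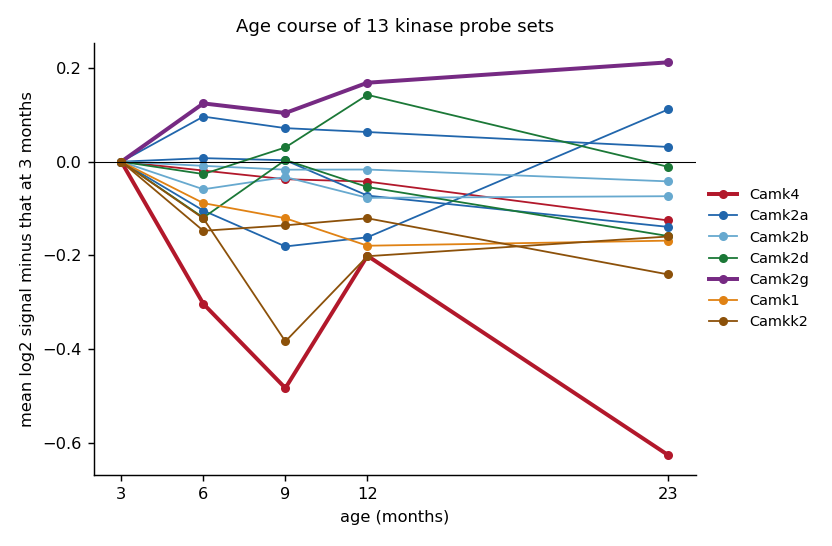
Mean log2 signal of the 13 kinase probe sets at each age minus that at 3 months, against age in months, coloured by gene (thick lines: Camk4 1369752_a_at and Camk2g 1369993_at). Camk4 1369752_a_at reaches −0.63 at 23 months after −0.48 at 9 and −0.20 at 12 months, and Camk2g reaches 0.21.

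Genes around the kinases showed few calls at 23 against 3 months. Among 17 probe sets listed as other calmodulin-regulated or related kinases and CaMKII inhibitors (13 of 14 listed genes), 0 were called higher and 1 lower. The median log2 difference was −0.03, and calmodulin regulation of the listed genes was not tested. The called probe set was not of a CaMKII inhibitor. It was Dclk1 1369686_at, a doublecortin-like kinase, with a mean of 3461 ± 210 at 23 months and 3920 ± 115 at 3 months, a log2 difference of −0.18 (SE 0.035, adjusted p = 0.000449). The 2 other Dclk1 probe sets had 0.05 and −0.08 and did not pass (adjusted p = 0.780 and 0.634). Camkv, a kinase-like protein of vesicles, had a called slope on 1368845_at (−0.21 over 20 months, adjusted p = 0.0271) but not a called difference at 23 against 3 months (−0.19, adjusted p = 0.133). The slope of its other probe set, 1368846_at, was −0.07 and not called (adjusted p = 0.284).

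In the other 5 lists 0 probe sets were called at 23 against 3 months in limma. Of calmodulin and its binding buffers, 10 probe sets of 6 of 8 genes had a median of −0.02, and those of smallest p were Marcksl1 (−0.14, adjusted p = 0.237) and Marcks 1388157_at (−0.26, adjusted p = 0.361). Of phosphatases that oppose the kinases and of regulators of phosphatases, 18 probe sets of 14 of 15 genes had a median of −0.02. The regulators in this list include Rcan1, Rcan2, Ppp1r1a and Ppp1r1b. Ppp3cb 1387261_at, a calcineurin catalytic subunit, was at −0.17 (adjusted p = 0.119). Ppp1cb, a protein phosphatase catalytic subunit, was at −0.21 (adjusted p = 0.328). Of the regulators of CREB and MEF2 transcription, 17 probe sets of 11 of 13 genes had a median of 0.02, with Mef2d 1369851_at at 0.30 (adjusted p = 0.439) and Srf 1388842_at at −0.07 (adjusted p = 0.593). CREB itself, Creb1, had −0.16 and 0.05 on its 2 probe sets (adjusted p = 0.620 and 0.823).

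Of the synaptic partners and substrates of CaMKII, 21 probe sets of 12 of 15 genes had a median of −0.05, and both probe sets of the synapsin gene Syn1 had the smallest p, at −0.15 and −0.14 (adjusted p = 0.246 and 0.380). Of AMPK subunits and partners, 9 probe sets of 8 of 9 genes had a median of −0.01, with Prkaa2 at 0.24 and Prkaa1 at −0.06 (adjusted p = 0.710 and 0.773). At an unadjusted p under 0.05 there were 1, 2, 0, 1 and 0 probe sets in these 5 lists, in the order given, where 14.5% of all probe sets were under it. All medians stand beside one of 0.00088 over all probe sets tested, and the lists are described by counts with no test of a list.

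**Figure D5:**
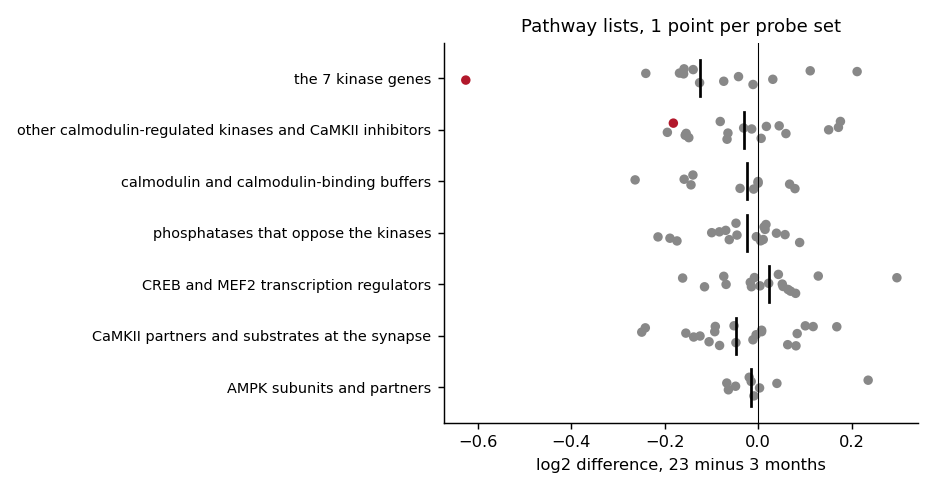
Log2 difference in signal, 23 minus 3 months, for each probe set of the 7 kinase genes and of 6 lists of related genes; each point is 1 probe set, red points were called and short bars are medians. Called points are Camk4 1369752_a_at at −0.63 and Dclk1 1369686_at at −0.18, and the medians lie between −0.13 and 0.02.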

How the data were processed

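The deposited table holds intensities on a linear scale that the authors computed with MAS5 (per the submitters' processing notes; version not given in the sources used here) and brought to a target intensity of 500 across the whole array, per the series' design text; each array's mean after trimming 2% at each end was 500.1, and array medians were 208.6 to 225.3. Precision is limited by how many arrays each age has. The design text gives the oldest age as 25 months in 1 place; the labels' 23 was used. That group had lost 2 animals to poor health. Each array is a different animal, so the tests use the variation among animals. Presence calls, scan dates and behaviour scores were not analysed here.

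From 15923 probe sets, 57 controls were removed. The platform annotation gave 12789 probe sets 1 symbol, 312 several and 2822 none, and 12754 were matched by Entrez ID to RefSeq (GRCr8, names only). No per-sample column was left unused (0), and no 2 arrays were alike (the SD of the log2 difference was at least 0.258). Probe sets with a signal of 100 on at least 5 arrays were tested on log2 intensities with a floor of 16, which set 0.059% of values. In limma (3.58.1, R 4.3.3, variance trend), 1 fit of 49 arrays with a mean per age gave the F-test and contrasts, and a separate fit of the same arrays on age in months gave the slope, all adjusted by Benjamini-Hochberg over 11375 probe sets at 0.05, with 95% intervals. Pairs of probe sets of 1 gene were compared with exact permutation tests of all 497420 arrangements in place of the 100000 resamples first planned, since 1 group has 9 animals, and correlated with 100000 resamples.

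On simulated data for 23 against 3 months (11375 probe sets), limma recovered 11, 41, 48 and 50 of 50 probe sets with log2 changes of 0.25, 0.5, 1 and 2, and 6 of its 156 calls were false. The simulated noise was normal and independent, with 1 SD per probe set at all ages, and changes were linear in age. Deviations shared by arrays and spread that differs by age were not simulated, so these rates may not hold for the real arrays. Replicate numbers were not taken to pair the animals in the main fit. Of 86 same-number pairs 34 had a correlation over 0.1, a share not counted among the 868 other pairs. That count cannot decide whether arrays of 1 number share a deviation. The mean correlation was 0.069 for same-number pairs and −0.0066 for other pairs. Of 49 arrays, 17 correlated best with their own number, a sign that some arrays of 1 number share a deviation. A fit with the replicate number as a block is given with the alternatives. The members, gene lists and tests were chosen with earlier results of these data known. All member probe sets are named; of each list, called probe sets or else the 2 of smallest p, with Creb1 added after its values were seen; and for a called member the 3 genes most like it. Alternatives covered the floor, filter, normalization, variance model, array weights, replicate block, plain tests, fits of 2 ages, other-tissue and RNA-quality signs, and single arrays.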

Additional observations from a re-analysis of the deposited data

Results flagged for a closer look

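Among 56 groups of 9 animals checked (14 probe sets at 4 ages, the 23-month group being too large for the check), 4 signals stood apart from the rest of their group by a gap that was large for the group's range. Chance alone gives about 1 in 20 groups. Camk2a 1389824_at was 189.3 in 3 months replicate 8, where the other animals lay between 304.2 and 406.1. Camk2d 1368834_at was 1989.7 in the same animal, against 892.5 to 1394.0 in the others, and Camk2d 1371263_a_at was 372.0, against 147.0 to 243.5. Camk2d 1371263_a_at was also high in 6 months replicate 8, at 320.1, against 150.9 to 229.2 in the others. The array of 3 months replicate 8 had a Ttr signal of 12003, the highest of its age; its part in these values was not tested. Without that animal the log2 difference at 23 against 3 months was 0.011 for Camk2a 1389824_at and 0.085 for Camk2d 1368834_at.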

How the results depend on the processing

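The number of kinase probe sets called over any age, 1, was 0 with no filter, no variance trend, the methods' plain test after adjustment, no arrays of high Hbb or the 3′ to 5′ ratio as a covariate (Camk4 adjusted p = 0.0868, 0.0556, 0.0750, 0.0964 and 0.142), and 0 to 1 with single arrays left out. At 23 against 3 months, 1 became 2 in the fit of 2 ages alone and 2 with the ratio covariate, where Camk2g joined Camk4, and 1 to 2 with single arrays left out; in the plain test after adjustment the 1 called was Camk2g. The slope count of 1 was 1 to 2 without single arrays. The plain test at an unadjusted p of 0.05 gave 2 over any age, 3 at 23, 1 at 12 and 1 at 9 against 3 months, 2 at 23 against 12 months and 2 for the slope, where it gave 9.31%, 14%, 7.56%, 3.85%, 7.11% and 17.5% of all probe sets. Differences near 0 turned sign: Camk2d 1368834_at (−0.01) was 0.22 with the replicate block, 0.17 without high Ttr, 0.0049 with Prox1 as a covariate and −0.087 to 0.085 without single arrays; Camk2d 1371263_a_at (−0.16) was 0.0053 without high Ttr; Camk2a 1388187_at (0.03) was −0.070 with the block and −0.017 to 0.10 without single arrays; and the difference of Camk2a 1388187_at from 1389824_at (−0.08) was 8.2e-05 without high Ttr and −0.13 to 0.0097 without single arrays. The causes were not tested. Of 86 pairs of arrays with the same replicate number, 34 had a correlation over 0.1 and the rest did not. The share over 0.1 among other pairs was not counted, so this cannot decide whether the numbers mark pairs. The main fit did not use them. The mean correlation was 0.069 for same-number pairs and −0.0066 for the 868 other pairs. Of 49 arrays, 17 correlated best with their own number, a sign in the data that some arrays of 1 number share a deviation. With the replicate block 1 kinase probe set was called at 23 against 3 months, with Camk4 at −0.84 (adjusted p = 0.000634). Over all probe sets, 338 were called at 23 against 3 months and 217 without high Ttr; 32 were called at 23 against 12 months, 13 in the fit of 2 ages and 5 in the plain test; 23 were called at 12 against 3 months, 42 with array weights and 15 without high Ttr; 6 were called at 9 against 3 months and 1 to 9 under the alternatives; and 1 was called at 6 against 3 months and 0 in the plain test or the fit of 2 ages. All other results kept their direction and their side of the threshold, apart from the Camk4 and Camk2g values given with those genes. Signals near 100, as for Camkk2, leave wide intervals. Camk4 signals were not far above it, with medians over 49 arrays of 170.8 for 1369752_a_at and 136.2 for 1369753_at. The part of low signal in the Camk4 values was not tested beyond the floor and filter settings.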
